A study of Mus musculus with 12 samples.

Results

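The cytosolic ribosomal protein genes code for the proteins of the 80S ribosome, the particle that translates nuclear-encoded mRNA. All probe sets whose platform symbol is Rpl or Rps followed by a number were taken, with Rplp0, Rplp1, Rplp2 and Rpsa, and symbols of the S6 kinases (Rps6k), pseudogenes (-ps) and names ending in the letter l were left out. The brightest probe set by mean signal on the 12 arrays stood for each gene. This gave 46 of the 18193 genes with a probe set, 24 with Rpl or Rplp symbols and 22 with Rps symbols. By symbol, 43 of the 46 are ribosomal proteins, 22 of the large and 21 of the small subunit. The other 3, which met the same symbol rule, are Rpl22l1 and Rpl7l1, paralogs of Rpl22 and Rpl7, and Rps19bp1, which codes for a protein that binds RPS19 and is not itself a ribosomal protein. The genes lie on 15 chromosomes, with 7 of them on chromosome 7 and 6 on chromosome 17.

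The study measured RNA of 12 mice on 1-colour Affymetrix arrays, in 4 groups of 3. The first group is Stat5a and Stat5b knockout (KO) treated with growth hormone (GH), written KO+GH, and the second is wild type with GH, written WT+GH. The third is untreated KO and the fourth is untreated WT. STAT5A and STAT5B are transcription factors that the activated GH receptor switches on. The series title is about skeletal muscle, while the treatment text places the gene loss in blood cells. The labels give no Cre driver, strain, age, sex, GH dose, length of treatment or statement of pooling. Nothing says that replicates are more than separately numbered animals.

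Each ribosome holds 1 copy of most of these proteins, made at matched rates and assembled with ribosomal RNA in the nucleolus. Their mRNAs are among the most abundant of many cells. Most of them begin with a C followed by an unbroken run of pyrimidines, the 5′ terminal oligopyrimidine (TOP) motif, through which the kinase complex mTORC1 governs how much of the mRNA is translated. That control acts on translation, so an mRNA level can stay the same while protein output changes. In muscle, GH and IGF-1 are known to stimulate protein synthesis, and mTORC1 is part of the pathway.

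The sequences around the annotated transcription starts are shown because they are the place where the TOP motif would lie. RefSeq's promoter table for GRCm38.p6 held a start for 41 of the 46 genes, all but Rpl7, Rpl8, Rps14, Rps20 and Rps29. Where a gene had several starts in that table, only the most upstream was used, for these genes and for the whole table. It can lie inside the annotated gene, as in Rpl7a, whose gene begins at 26910685. Other starts were not searched. Each window below runs 5′ to 3′ from 10 bases before the annotated start to 20 bases from it, 30 bases in all, the start being base 11 of the window. Capitals mark the longest unbroken run of C and T, where it is 5 bases or longer. The first 8 genes are those with the smallest p for GH in KO animals, and Rplp0 and Rpsa follow. Rpl35, Rplp2 and Rps18 were added after their sequences were seen, as examples of starts that match the motif.
Rpl37, chr15:5116603-5116632, plus strand: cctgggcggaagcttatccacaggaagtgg
Rpl12, chr2:32961702-32961731, plus strand: agcaggatccgTCTTTTCggctttcggctc
Rps24, chr14:24490668-24490697, plus strand: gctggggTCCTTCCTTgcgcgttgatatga
Rps19bp1, chr15:80264287-80264316, minus strand: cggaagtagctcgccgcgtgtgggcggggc
Rpl22, chr4:152324426-152324455, plus strand: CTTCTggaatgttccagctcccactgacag
Rpl7a, chr2:26910797-26910826, plus strand: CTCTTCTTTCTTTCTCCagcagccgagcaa
Rps19, chr7:24884582-24884611, plus strand: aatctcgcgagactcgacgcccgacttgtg
Rps3a1, chr3:86142649-86142678, minus strand: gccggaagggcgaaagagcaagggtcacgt
Rplp0, chr5:115559457-115559486, plus strand: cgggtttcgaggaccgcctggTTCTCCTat
Rpsa, chr9:120127756-120127785, plus strand: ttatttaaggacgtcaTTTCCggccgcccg
Rpl35, chr2:39005112-39005141, minus strand: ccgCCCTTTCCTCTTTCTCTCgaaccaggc
Rplp2, chr7:141447641-141447670, plus strand: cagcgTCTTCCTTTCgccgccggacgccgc
Rps18, chr17:33955646-33955675, minus strand: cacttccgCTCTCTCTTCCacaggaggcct

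The motif searched was a C at the annotated start followed by at least 4 further C or T, on the transcript's strand. It was found at 8 of the 41 starts (19.5%), those of Rpl14, Rpl35, Rpl38, Rplp2, Rps6, Rps10, Rps18 and Rps27, against 671 of 27025 genes of the whole table (2.48%). The longest C and T run in the window reached 5 bases in 28 of 41 genes (68.3%), against 12517 of 27025 (46.3%). In Rps24, the run spans the annotated start, and in Rpl12 it begins 1 base after it. An annotated start can differ from the start used in muscle, and the windows show only these letters.

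On every array the authors' signals have a trimmed mean of 500, so levels are relative to the other transcripts of that array. Stat5b signal was 362 ± 25.2 in KO+GH and 1794 ± 101 in WT+GH, and 428 ± 63.7 in KO against 2820 ± 162 in WT (SD, n = 3 each). Stat5a signal was 162 ± 33.5 in KO+GH and 402 ± 29.7 in WT+GH, and 255 ± 97.5 in KO against 627 ± 90.5 in WT. Both targeted genes were thus lower in the groups labelled KO, with signal left in each. Markers of skeletal muscle fibre (Acta1, Ckm and 7 others) had a summed signal of 361246 to 592080 on the 12 arrays, and the 8 lymphocyte markers with a probe set 243 to 381. The median signal of gene probe sets was 97.1 to 101.5 on the 6 arrays with GH and 79.2 to 92.3 on the 6 without. The added poly-A control transcripts, which are mixed in before labelling, gave a geometric mean signal of 442 to 467 with GH and 129 to 168 without. The 3′ over 5′ signal ratio of actin lay at 0.887 to 1.01 on the arrays with GH and at 0.805 to 0.864 on the others. GH and the handling of these array sets cannot be told apart.

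Of the 46 genes, 45 were bright enough to test. The exception was Rps16, a protein of the small subunit head, whose single usable probe set lay between 0.9 and 4.5 on all 12 arrays and carries no usable measurement. Rplp1, Rpl3 and 27 other family symbols stood only on probe sets that list several genes, so no value is given for them. P-values come from limma's moderated test over 12654 genes with Benjamini-Hochberg adjustment and a threshold of 0.05, and a log2 fold change is on the scale log2(signal + 25). Values after ± beside a log2 fold change are standard errors. In these bulk samples, fewer cells of a type and less RNA per cell cannot be told apart.

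Across the 45 genes, the level of ribosomal protein mRNA as deposited overlapped between the 4 groups. The median over the genes of log2(signal + 25) was 14.06, 14.01 and 14.09 on the KO+GH arrays and 14.14, 14.00 and 14.04 on the WT+GH arrays. It was 14.16, 14.05 and 14.09 on the KO arrays and 13.89, 14.14 and 14.20 on the WT arrays. The lowest and the highest value were both on WT arrays, replicates 1 and 3, and the range over the 12 arrays was 0.31. When each array was centred on its own median, the same measure was 13.90 to 14.02 in KO+GH and 13.88 to 14.07 in WT+GH, against 14.07 to 14.32 in KO and 13.94 to 14.34 in WT. KO+GH then lay below KO with no overlap, while WT+GH and WT still overlapped because of WT replicate 1.

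**Figure D1:**
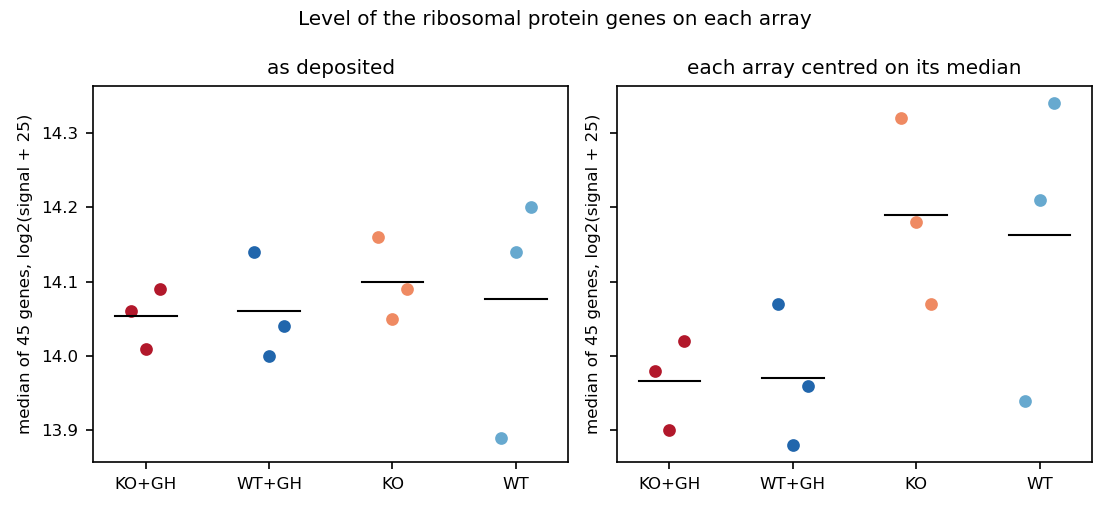
Median log2(signal + 25) over the 45 ribosomal protein genes tested (y axis) for each array (points) in the 4 groups (x axis), with group means as bars, as deposited (left) and with each array centred on its median over gene probe sets (right). As deposited the groups overlap, with WT replicate 1 lowest at 13.89; after centring the KO+GH arrays lie at 13.90 to 14.02 and the KO arrays at 14.07 to 14.32.

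The genes moved together from array to array within a group. After each gene was centred on its group means, the median correlation over the 990 pairs of ribosomal protein genes was 0.55 across the 12 arrays, against 0.01 over all pairs of genes kept, and it was 0.33 without WT replicate 1. The pairs share their arrays and genes, so the value is a description. Pairs of equally bright genes were not compared, and the part of array scaling in the value was not tested. WT replicate 1 was the lowest array of its group for 36 of the 45 genes, WT+GH replicate 2 for 33 and KO+GH replicate 2 for 31. The median standard deviation among the 3 arrays, on the log2 scale, was 0.0415 in KO+GH, 0.109 in WT+GH, 0.0962 in KO and 0.214 in WT. Over all genes kept these were 0.0997, 0.135, 0.166 and 0.177 in the same groups. The ribosomal protein genes thus had a smaller median spread in KO+GH, WT+GH and KO. Only in WT, the group with the low replicate 1, was it larger.

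KO animals did not differ detectably from WT in these genes, with or without GH. Without GH, 0 of 45 genes passed the threshold higher and 0 lower in KO, where 0.774% of all genes tested were called higher and 0.68% lower. The median log2 fold change of the ribosomal protein genes was 0.039, against -0.003 over all genes tested, and 1 of 45 had an unadjusted p under 0.05. With GH, again 0 of 45 were higher and 0 lower in KO+GH than in WT+GH, beside 2.42% and 2.11% of all genes, and 0 had an unadjusted p under 0.05. The median there was -0.026, against -0.016 over all genes. The 95% interval of the fold change lay within 1.5-fold in either direction for 42 of the 45 genes without GH and for 40 with GH, so larger genotype differences in those genes fell outside the intervals. The same 0 counts were found after median centring, where 0.624% and 0.529% of all genes were called higher and lower without GH and 2.17% and 1.63% with GH.

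The proteins of the stalk, which recruits the translation factors to the large subunit, illustrate the genotype comparison. Rplp0, the stalk base that is widely used as a reference gene, had signals of 27783, 27705 and 27709 in KO+GH and 30561, 26389 and 29317 in WT+GH. It had 30072, 28544 and 30382 in KO, against 27426, 29699 and 30639 in WT. Genotypes overlapped in Rplp0 under both conditions, and the log2 fold change was -0.05 ± 0.0755 with GH (adjusted p = 0.816) and 0.02 ± 0.0755 without (adjusted p = 0.954). Rplp2, an acidic stalk protein, differed by -0.01 ± 0.108 with GH and 0.09 ± 0.108 without. Rpl12, which binds at the stalk base, had signals of 254, 282 and 242 in KO, against 206, 205 and 236 in WT. These arrays did not overlap, but the log2 fold change of 0.24 ± 0.119 did not pass the threshold (adjusted p = 0.466), and with GH it was -0.05 ± 0.119 (adjusted p = 0.892). Rpsa, the small subunit protein also known as the laminin receptor, differed by 0.01 ± 0.0773 with GH and 0.10 ± 0.0773 without.

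The genes farthest from 0 between genotypes were ones with uneven replicates. Rpl27a, a large subunit protein, had signals of 539, 860 and 1669 in KO, against 683, 600 and 559 in WT. KO replicate 3 alone was far above the others, and the log2 fold change of 0.57 ± 0.279 had an adjusted p of 0.466. Without KO replicate 1, Rpl27a was called (0.94, adjusted p = 0.0304), the single such call when 1 array was left out. Rps6, the small subunit protein that S6 kinase phosphorylates, had the lowest value without GH, -0.35 ± 0.426, with signals of 357, 181 and 544 in KO and 612, 194 and 637 in WT. Rpl22 had the smallest p without GH, with a log2 fold change of 0.30 ± 0.125 (limma's adjusted p = 0.361). With GH, the range over the 45 genes was narrower, and ran from -0.18 ± 0.183 for Rps25, a protein of the small subunit head, to 0.34 ± 0.334 for Rpl39, a small protein of the exit tunnel.

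**Figure D2:**
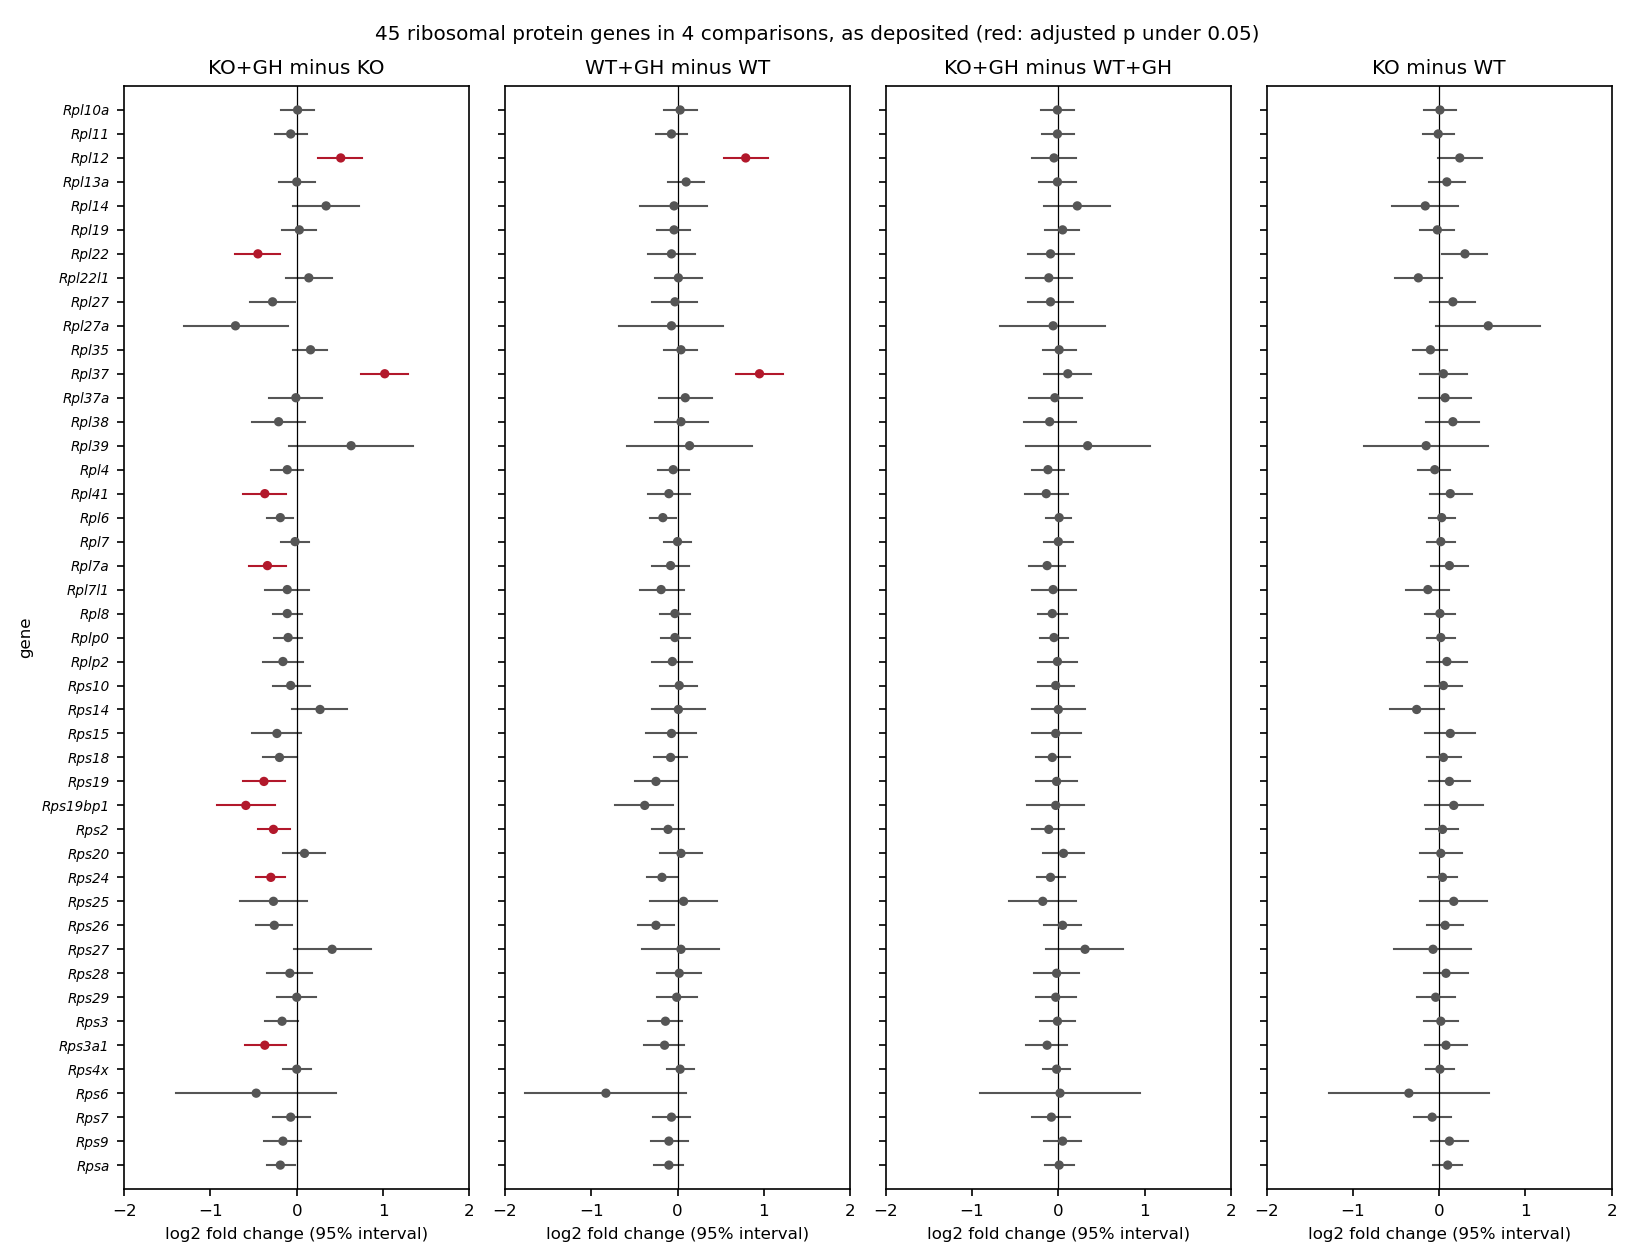
Log2 fold change (point) and 95% interval (line) on the x axis for each of the 45 ribosomal protein genes (y axis) in KO+GH minus KO, WT+GH minus WT, KO+GH minus WT+GH and KO minus WT, as deposited. Red marks an adjusted p under 0.05: Rpl37 and Rpl12 lie to the right of 0 for GH in both genotypes, 8 genes lie to the left for GH in KO, and no gene is red in the genotype comparisons.

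GH treatment went with higher Rpl37 and Rpl12 signal in both genotypes and, in KO animals, with lower signal of 8 other genes. In KO, 2 of 45 genes were called higher with GH and 8 lower, beside 8.93% and 15.4% of all genes tested. In WT, 2 of 45 were called higher and 0 lower, beside 7.33% and 11.8% of all genes. Without adjustment, 16 of 45 in KO and 7 of 45 in WT had a p under 0.05, beside 36.5% and 32.6% of all genes. The median log2 fold change of the 45 genes was -0.113 in KO and -0.043 in WT, against -0.065 and -0.055 over all genes tested. The share of ribosomal protein genes called lower in KO (8 of 45) was thus near that of all genes, and in WT it was below it. The share called higher (2 of 45) was below that of all genes in both genotypes. Both comparisons use the same table, but no arrays are common to them.

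Rpl37, a zinc-binding protein of the large subunit (chr15:5116613-5119140), had the largest rise, read from its 1 usable probe set. Its signal was 3438, 3891 and 3482 in KO+GH, against 2023, 1625 and 1671 in KO. It was 3154, 3006 and 3872 in WT+GH, against 1405, 1831 and 1925 in WT. Every array with GH was above every array without it. The log2 fold change was 1.02 ± 0.127 in KO, or 2.02-fold (adjusted p = 5.15e-05), and 0.95 ± 0.127 in WT, or 1.94-fold (adjusted p = 0.000127).

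The usable probe set of Rpl12, which forms the base of the stalk together with Rplp0 (chr2:32961712-32964045), rose in both genotypes too. Its signal was 365, 404 and 366 in KO+GH, against 254, 282 and 242 in KO. In WT+GH it was 406, 379 and 391, against 206, 205 and 236 in WT. The groups with and without GH did not overlap in either genotype. The log2 fold change was 0.51 ± 0.119 in KO (adjusted p = 0.00665) and 0.79 ± 0.119 in WT (adjusted p = 0.000346).

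Both rises rest on 1 usable probe set each, and of the 5 other probe sets that list these genes with further symbols, 1 was called in KO and 0 in WT. Of the 3 probe sets that list Rpl37 beside other symbols, the log2 fold changes were 0.67 ± 0.188 (adjusted p = 0.0194), -0.04 ± 0.248 and -0.17 ± 0.118 with GH in KO. In WT they were 0.33 ± 0.188, 0.10 ± 0.248 and -0.05 ± 0.118, none past the threshold. The 2 that list Rpl12 gave -0.11 ± 0.0998 and 0.11 ± 0.149 in KO, and -0.06 ± 0.0998 and 0.05 ± 0.149 in WT. These 2 had mean signals of 14961 and 10699 over the arrays, against 311 for the Rpl12 probe set used. The 3 that list Rpl37 had 12504, 351 and 22677 in the order above, against 2610 for the Rpl37 probe set used. Both rises thus come from probe sets dimmer than the brightest that list the gene. The Rpl37 probe set carries the suffix _x_at, which Affymetrix gives to sets with probes that can match other transcripts. Whether the rises belong to the main transcripts of these genes was not tested.

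The 8 genes called lower with GH in KO, each by its brightest probe set, came from both subunits. For 3 of them the direction turned with the probe set used. Averaged over all probe sets, Rps24 was at 0.36 (adjusted p = 0.00307), Rpl22 at 0.02 and Rpl41 at 0.09. The counts and falls given next hold for the brightest probe set. The small subunit gave Rps24, Rps19, Rps3a1 and Rps2, the large subunit gave Rpl22, Rpl7a and Rpl41, and the remaining gene was Rps19bp1. By subunit, 2 of 22 large subunit genes were higher and 3 lower, with a median log2 fold change of -0.08, and 0 of 20 small subunit genes were higher and 4 lower, with a median of -0.18. No test of a difference between the subunits was made. In WT, the corresponding counts were 2 higher and 0 lower for the large subunit and 0 and 0 for the small one, with medians of -0.03 and -0.08.

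Among the small subunit genes, Rps24 and Rps19 are both known from human Diamond-Blackfan anaemia, in which a single mutated copy impairs red cell formation. Rps24 (chr14:24490678-24496960) had signals of 24551, 23021 and 24176 in KO+GH, against 31232, 27251 and 30234 in KO, with no overlap. Its log2 fold change was -0.30 ± 0.0787 (adjusted p = 0.0113), and in WT it was -0.18 ± 0.0787 (adjusted p = 0.129). Rps19 (chr7:24884592-24889811) had 6829, 6789 and 7223 in KO+GH, against 9236, 9112 and 8793 in KO, again with no overlap. It fell by 0.38 ± 0.113 (adjusted p = 0.0235), with -0.25 ± 0.113 in WT (adjusted p = 0.144). In WT the Rps19 groups overlapped through WT replicate 1 at 6695, and without that array the log2 fold change of -0.40 passed the threshold (adjusted p = 0.00397).

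Rps3a1 and Rps2 completed the small subunit genes. Rps3a1, on the small subunit platform, had 18532, 18435 and 19123 in KO+GH, against 23239, 22039 and 27376 in KO. The groups did not overlap, and the gene fell by 0.37 ± 0.110 (adjusted p = 0.0252). Rps2, near the channel through which mRNA enters, had 27051, 27746 and 27926 in KO+GH, against 31656, 32154 and 35786 in KO. It fell by 0.27 ± 0.0868, the weakest of the 8 by p (adjusted p = 0.037). In WT these genes had log2 fold changes of -0.15 ± 0.110 and -0.11 ± 0.0868, short of the threshold.

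Rpl22, a large subunit protein near the exit of the peptide tunnel, had 14223, 14033 and 14269 in KO+GH, against 19660, 17957 and 20786 in KO. The groups did not overlap, and it fell by 0.45 ± 0.125 (adjusted p = 0.0161). Rpl7a, an RNA-binding protein of the large subunit, had 23964, 23513 and 24434 in KO+GH, against 28898, 28883 and 33250 in KO, and fell by 0.34 ± 0.0990 (adjusted p = 0.0224). Rpl41, the smallest of the ribosomal proteins, had 23632, 23216 and 24112 in KO+GH, against 29093, 28725 and 34234 in KO, and fell by 0.37 ± 0.116 (adjusted p = 0.0303). In all 3 genes KO+GH was the most uniform group and lay below every KO array. In WT, their log2 fold changes were -0.07 ± 0.125, -0.08 ± 0.0990 and -0.10 ± 0.116, and the groups overlapped.

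Rps19bp1 (chr15:80260614-80264306) had 437, 331 and 477 in KO+GH, against 640, 640 and 608 in KO. It fell by 0.59 ± 0.156 (adjusted p = 0.0132), the largest fall among the genes called. It had 496, 387 and 385 in WT+GH, against 443, 607 and 636 in WT, a log2 fold change of -0.38 ± 0.156 (adjusted p = 0.101). With GH in WT, the genes nearest the threshold were Rps26, at -0.25 ± 0.0986 (adjusted p = 0.0941), and Rps19bp1, followed by Rpl6 at -0.17 ± 0.0694 (adjusted p = 0.106).

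**Figure D3:**
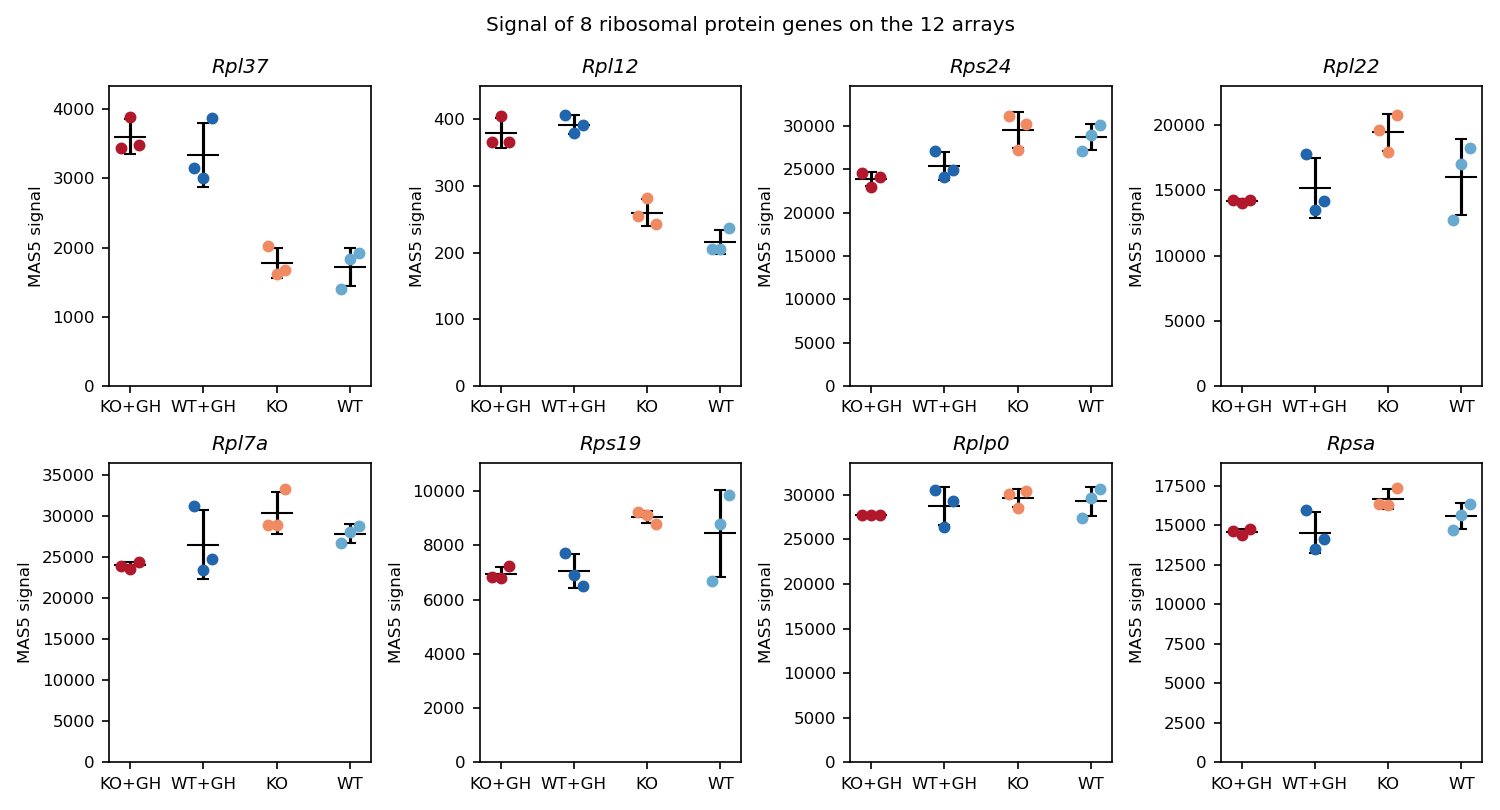
MAS5 signal (y axis, linear, from 0) of 8 ribosomal protein genes on each of the 12 arrays (points) by group (x axis), with mean and standard deviation as bars (n = 3 each). In the probe set used for each gene, Rpl37 and Rpl12 are higher on every array with GH. Rps24, Rpl22, Rpl7a and Rps19 are lower in all KO+GH than in all KO arrays, and Rplp0 lies between 26389 and 30639. Other probe sets of Rps24 and Rpl22, not drawn here, have positive log2 fold changes with GH in KO.

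With 1 array left out, the 8 genes kept their direction in KO but many fell short of the threshold. Without KO+GH replicate 2, 0 of the 45 genes were called lower, beside 10.3% of all genes, and the 8 had log2 fold changes of -0.45 to -0.27 with adjusted p of 0.0529 to 0.0926. Without KO+GH replicate 1, 3 genes were called lower, beside 10.3%. Without KO+GH replicate 3 the count was 4, beside 10.8%, and without KO replicate 3 it was 3, beside 13.4%. More calls stayed without KO replicate 1, where 7 genes were lower, 6 of them among the 8, beside 12.3%. Without KO replicate 2, 6 were lower, beside 12.2%. The share of all genes called lower was thus smaller too than the 15.4% with every array. Rpl37 and Rpl12 stayed called in both genotypes whichever array was left out, with adjusted p of at most 0.000585 and 0.0381 in KO and 0.0011 and 0.00235 in WT.

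Rplp0, Rplp2 and Rpsa were not called with GH as deposited, unlike Rpl12. Rplp0 had a log2 fold change of -0.10 ± 0.0755 in KO (adjusted p = 0.385) and -0.03 ± 0.0755 in WT (adjusted p = 0.844). Rplp2 had -0.16 ± 0.108 and -0.06 ± 0.108 in the same comparisons. Rpsa had -0.19 ± 0.0773 in KO, with signals of 14613, 14399 and 14780 in KO+GH against 16337, 16264 and 17355 in KO (adjusted p = 0.0888), and -0.10 ± 0.0773 in WT. The KO+GH and KO arrays did not overlap in any of these 3 genes, although none passed the threshold. Of the 45 genes, 19 lay lower and 3 higher in KO+GH than in KO without overlap. The share over all genes was not computed, so lack of overlap is given here and elsewhere only as a description.

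The lowest log2 fold changes with GH belonged to dim genes with uneven replicates. In KO it was Rpl27a, at -0.71 ± 0.279 (adjusted p = 0.0833), with 521, 524 and 622 in KO+GH against the KO values above. In WT it was Rps6, with 299, 207 and 191 in WT+GH against 612, 194 and 637 in WT, at -0.83 ± 0.426 (adjusted p = 0.200). The Rps6 groups overlapped because of WT replicate 2.

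No ribosomal protein gene passed the test of whether the GH response differed between genotypes. In the interaction, 0 of 45 genes were higher and 0 lower, beside 0.624% and 0.308% of all genes, and 1 of 45 had an unadjusted p under 0.05. After median centring the counts were again 0 and 0, beside 0.577% and 0.19% of all genes. The gene with the unadjusted p under 0.05 was Rpl22, at -0.38 ± 0.177 (limma's adjusted p = 0.472). The median was -0.071, against -0.014 over all genes tested. Rpl37 had an interaction of 0.06 ± 0.179 and Rpl12 of -0.29 ± 0.169 (adjusted p = 0.594). The extremes were Rpl27a at -0.63 ± 0.395 and Rpl39 at 0.49 ± 0.472. The 8 genes called lower in KO and not in WT are therefore not shown to differ between genotypes.

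How the arrays were scaled set how many genes were called with GH. Centring each array on its median over gene probe sets lowered every GH log2 fold change by a further 0.178 in KO and 0.185 in WT, and moved genotype comparisons by 0.007 or less. After centring, 1 gene was higher and 22 lower in KO, beside 5.08% and 33.0% of all genes, and 2 higher and 10 lower in WT, beside 3.87% and 31.1%. The medians were -0.291 in KO and -0.228 in WT, against -0.243 and -0.24 over all genes. All 8 genes lower in KO as deposited were among the 22, which also held Rplp0 at -0.28 (adjusted p = 0.0279), Rplp2 at -0.34 (adjusted p = 0.0427) and Rpsa at -0.37 (adjusted p = 0.00558). In WT, the 10 were Rpl6, Rpl7l1, Rps2, Rps3, Rps3a1, Rps19, Rps19bp1, Rps24, Rps26 and Rpsa. Rpl37 stayed higher in both genotypes, at 0.84 in KO and 0.77 in WT, while Rpl12 stayed higher in WT and was at 0.33 in KO (adjusted p = 0.0676).

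The other scalings tried gave counts of lower genes nearer to those of the deposited values. With arrays centred on the median of the genes kept, 2 genes were higher and 1 lower in KO, beside 10.7% and 10.8% of all genes, and 2 and 0 in WT, beside 8.8% and 8.67%. The median of the 45 genes was then -0.06 in KO and 0.01 in WT, above 0 in WT. The gene that stayed lower in KO was Rps19bp1, at -0.53 after that centring. With quantile normalization, 4 were higher and 6 lower in KO, beside 8.69% and 16.0%, and 2 and 1 in WT, beside 7.33% and 12.9%. Rpl37 was called higher in both genotypes under each of these 4 scalings.

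**Figure D4:**
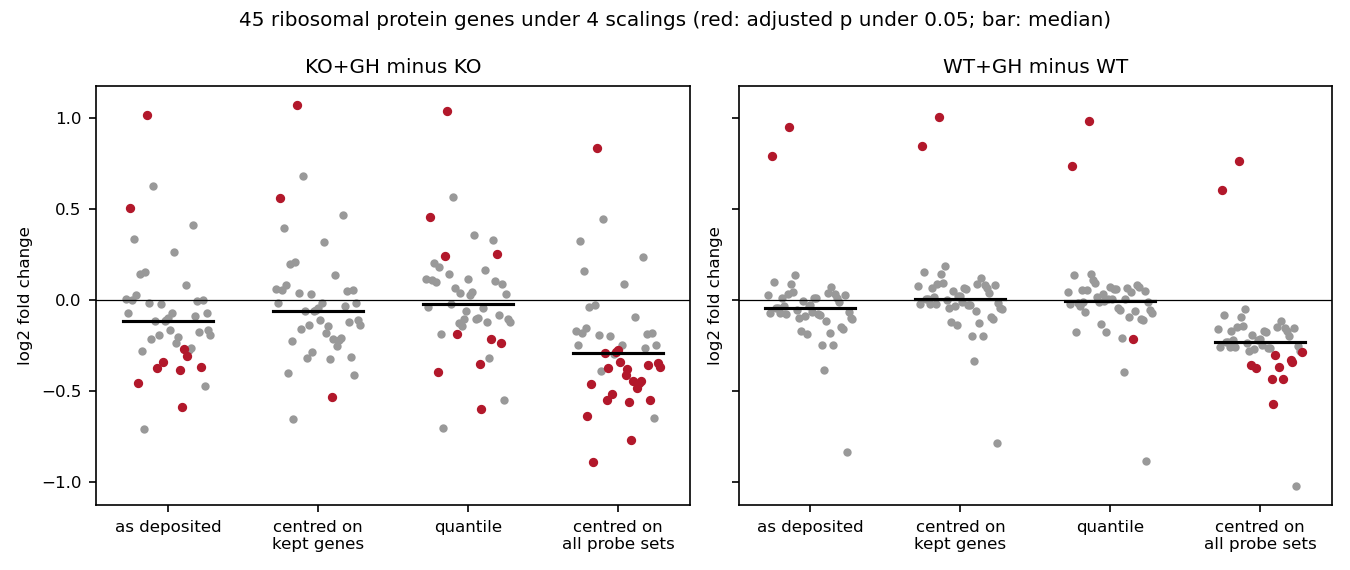
Log2 fold change (y axis) of the 45 ribosomal protein genes (points) for KO+GH minus KO and WT+GH minus WT under 4 scalings (x axis), with the median as a bar and adjusted p under 0.05 in red. The median in KO is -0.11 as deposited and -0.29 with centring on all gene probe sets, where 22 genes are red below 0, while Rpl37 is the highest point under every scaling.

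Different probe sets of the same gene often gave different answers. Of the 89 single-symbol probe sets bright enough to test, 11 were called higher and 10 lower with GH in KO, beside 13.1% and 11.5% of all probe sets tested, and 6 and 0 in WT, beside 11.0% and 8.7%. Of the 19 genes with more than 1 such probe set, 14 had both positive and negative log2 fold changes in KO, and 2 were called in both directions. Mixed signs were also found in 12 with GH in WT. They were found in 13 in each genotype comparison, where 0 probe sets were called, so mixed signs alone are not particular to GH. The 10 probe sets called lower in KO had mean signals of 507 to 30766 with a median of 22194, and the 11 called higher had 120.0 to 15799 with a median of 3126.

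Rps24 and Rpl41 were each called in both directions with GH in KO. In Rps24, the brightest probe set fell by 0.30 ± 0.0795 (adjusted p = 0.012). A second had signals of 7396, 6498 and 6410 in KO+GH against 5500, 3957 and 3203 in KO, with no overlap, and rose by 0.71 ± 0.170 (adjusted p = 0.00783). Another rose by 0.44 ± 0.138 (adjusted p = 0.0312). In Rpl41, the brightest fell by 0.37 ± 0.117 and a dim one, with a mean signal of 120.0, rose by 0.63 ± 0.196 (adjusted p = 0.0301). Rpl22, called lower by its brightest probe set, had values from -0.45 to 0.36, and in Rps10 a single probe set of 6 was called, at 1.60 ± 0.479 (adjusted p = 0.0367). Rpl27, a large subunit protein, was at -0.28 ± 0.124 in its brightest probe set (adjusted p = 0.117), while the others rose by 0.85 ± 0.171 (adjusted p = 0.00253) and 0.70 ± 0.158 (adjusted p = 0.00513). Rps14, on the small subunit platform, was at 0.27 ± 0.148 in the brightest (adjusted p = 0.21), and another fell by 0.35 ± 0.111 (adjusted p = 0.0295). No direction can be given for the Rps24, Rpl41, Rpl22, Rpl27 and Rps14 genes beyond the probe set used.

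**Figure D5:**
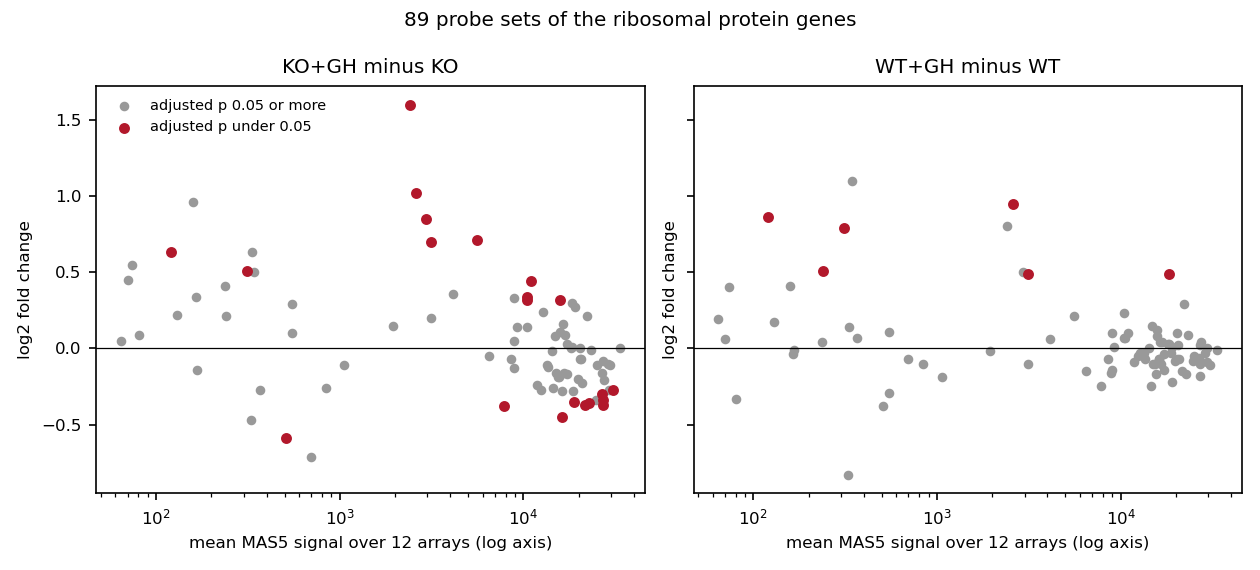
Log2 fold change (y axis) against mean MAS5 signal over 12 arrays (x axis, log scale) for the 89 single-symbol probe sets of the ribosomal protein genes, KO+GH minus KO (left) and WT+GH minus WT (right), with adjusted p under 0.05 in red. On the left, the 11 probe sets called higher have a median signal of 3126 and the 10 called lower a median of 22194; on the right 6 are higher and 0 lower.

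Ribosomal genes outside the symbol rule gave the following values. Fau, whose product is cleaved into the small subunit protein eS30 and a ubiquitin-like protein, fell by 0.43 ± 0.0992 with GH in KO (adjusted p = 0.00589). Rpl3l, the paralog of Rpl3 that is expressed in heart and skeletal muscle, had signals of 21616, 21089 and 21154 in KO+GH, against 18883, 18092 and 17809 in KO. It rose by 0.22 ± 0.0676 (adjusted p = 0.0273), but after median centring the value was 0.04 (adjusted p = 0.733). In WT it was 0.02 ± 0.0676.

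Genes that serve the ribosome were counted beside the shares of all genes called lower with GH, 15.4% in KO and 11.8% in WT as deposited and 33.0% and 31.1% after median centring. The shares called higher were 8.93% and 7.33% as deposited, and 5.08% and 3.87% after median centring. Among 16 translation factors and other TOP mRNAs, 1 was higher and 2 lower in KO, and 0 higher and 1 lower in WT, with medians of -0.08 in each, and after median centring 1 was higher and 6 lower in KO, and 0 higher and 8 lower in WT. Eef1a1, the elongation factor that brings aminoacyl-tRNA to the ribosome, fell by 0.27 ± 0.0759 in KO (adjusted p = 0.0178) and by 0.32 ± 0.0759 in WT (adjusted p = 0.00876). Tpt1, a classic TOP mRNA, fell by 0.42 ± 0.102 in KO, and Hnrnpa1, an RNA-binding protein with a TOP mRNA, rose by 0.67 ± 0.110. Among 30 genes of RNA polymerase I and ribosome assembly, 2 were higher and 2 lower in KO, and 1 higher and 3 lower in WT. After median centring, 1 of these was higher and 11 lower in KO, and 0 higher and 8 lower in WT. Polr1d, a subunit of RNA polymerases I and III, fell in both, by 0.42 ± 0.0745 in KO and 0.23 ± 0.0745 in WT. Rrp12, an assembly factor, rose by 0.69 ± 0.150 in KO, and Heatr1, which acts early in rRNA processing, rose by 0.45 ± 0.107 in WT (adjusted p = 0.009), but after median centring was at 0.27 (adjusted p = 0.0909).

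Among regulators of mTORC1 and MYC, single genes held larger changes with GH, while the median log2 fold change was 0.04 in KO and 0.16 in WT. Of 17 tested, 5 were higher and 1 lower in KO with GH, beside 8.93% and 15.4% of all genes. In WT, 3 were higher and 1 lower, beside 7.33% and 11.8%. After median centring the counts were 2 and 5 in KO, beside 5.08% and 33.0%, and 3 and 4 in WT, beside 3.87% and 31.1%. Ddit4, an mTORC1 inhibitor also called REDD1, rose by 2.78 ± 0.193 in KO (adjusted p = 3.54e-07) and by 3.65 ± 0.193 in WT (adjusted p = 7.24e-08). Myc, an activator of ribosome production, rose by 1.60 ± 0.138 in KO and by 0.89 ± 0.138 in WT. Sesn1 rose by 0.92 ± 0.118 in WT, and Akt1s1 fell by 0.38 ± 0.065 in KO and by 0.28 ± 0.065 in WT. Eif4ebp1 rose by 0.48 ± 0.116 in KO, but after median centring was at 0.30 (adjusted p = 0.0815). Between genotypes with GH, Ddit4 fell by 1.69 ± 0.193 in KO+GH relative to WT+GH (adjusted p = 0.000101), and Max, the partner of MYC, fell by 0.74 ± 0.183 (adjusted p = 0.0295), a call that median centring ended (-0.73, adjusted p = 0.0587). The ribosomal protein genes had 0 calls in that comparison.

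The mitochondrial ribosome and the proteasome, other large complexes, were counted beside the same shares of all genes called lower (15.4% in KO and 11.8% in WT). Of 76 mitochondrial ribosomal protein genes (Mrpl and Mrps), 1 was higher and 33 lower in KO, with a median of -0.24, and 1 higher and 17 lower in WT, with a median of -0.17. Of 37 proteasome subunit genes, 15 were lower and 2 higher in KO (median -0.15), and 5 lower and 1 higher in WT (median -0.12). The cytosolic ribosomal protein medians beside these were -0.113 and -0.043. After median centring, 57 and 49 of the mitochondrial ribosomal genes were lower in KO and WT, and 24 and 23 of the proteasome genes, beside 33.0% and 31.1% of all genes. No test of a difference between the families was made.

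Markers of other cell types also moved with GH. The 6 neutrophil markers had a summed signal of 1380 to 1662 in KO+GH and 2693 to 2730 in WT+GH, against 291 to 341 in KO and 297 to 382 in WT, and 2 of 4 tested rose in KO and 3 in WT. The 9 macrophage markers summed to 9784 to 9940 in KO+GH and 9959 to 10223 in WT+GH, against 12189 to 16723 in KO and 12574 to 19640 in WT. Of these, 7 were lower and 1 higher in KO, and 5 and 1 in WT. The 4 adipocyte markers summed to 11551 to 11849 in KO+GH and 10005 to 12700 in WT+GH, against 16881 to 29163 in KO and 17843 to 20933 in WT, with 3 of 4 lower in each genotype. The 4 red cell markers summed to 549 to 652 in KO+GH and 439 to 512 in WT+GH, against 282 to 460 in KO and 324 to 517 in WT, so that KO+GH and KO did not overlap. Alas2, the one of them bright enough to test, had a log2 fold change of 0.61 ± 0.228 in KO (adjusted p = 0.0651) and 0.17 ± 0.228 in WT. Of the 5 endothelial markers, 3 were lower with GH in each genotype, and of the 6 fibroblast markers, 2 in each. Of the 9 muscle fibre genes, 8 were lower with GH in KO (median -0.41) and 0 in WT (median -0.21), and after median centring all 9 were lower in both. The part of these cell type markers in the ribosomal protein values was not tested.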

How the data were processed

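The values deposited by the authors are MAS5 signals, linear intensity values of 45101 probe sets, with 12 arrays in all. MAS5 is named per the submitters' processing notes, and its version is not given in the sources used here. The authors' values have a mean without the lowest and highest 2% of 500 on every array. Values were taken as log2(signal + 25). Control probe sets (64), those naming more than 1 gene (932) and those naming no gene (9160) were left out, leaving 34945 probe sets of 18193 genes. A gene was tested when its mean log2 value exceeded the 40th percentile over probe sets, 6.253, which left 12654 genes. limma 3.58.1 in R 4.3.3 (lmFit with 1 mean per group, eBayes with trend and robust, 8 residual degrees of freedom) gave 2-sided p-values, adjusted by Benjamini-Hochberg over all genes tested. The interaction is KO+GH minus WT+GH, less KO minus WT. The number of arrays, 3 per group, limits precision.

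Named genes are Rplp0, Rplp1, Rplp2, Rpsa, Rpl3 and Rpl3l, up to 8 called members per direction, the extremes of each comparison, members whose probe sets were called in both directions, members too dim to test, and up to 4 called genes per list. Rps10, Rpl27 and Rps14 were chosen after their values were seen. Members and lists were chosen with earlier results of these data known. Coordinates and start sequences are RefSeq's, on GRCm38.p6. Array titles carry separate animal numbers, so p-values measure the spread between these arrays.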

Additional observations from a re-analysis of the deposited data

How the results depend on the processing

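Of 303 recomputed counts and medians, 272 moved by no more than 1.5 times or, for medians, by less than the spread of array medians within a group (0.10). The cause of the others was not tested. A count that stayed at 0 was taken as unmoved, and nearly all counts of the genotype comparisons and the interaction were 0. The 272 therefore do not measure how stable the GH counts were. The count over all genes tested is given beside each count below, out of 12654 unless stated. With GH in KO, the count of genes higher was 2 as reported (all genes: 1130). It was 1 with median centring (all genes: 643), 4 with quantile normalization (1099 of 12652) and 5 with the mean of all probe sets (1164 of 11875). It was 1 of 40 without _x_at and _s_at probe sets (1078 of 12316) and 5 with the second brightest probe set (1133). When probe sets with several symbols were added, it was 11 of 148 features (1139 of 12757). The count lower was 8 as reported (all genes: 1948) and 22 with median centring (4173). It was 5 of 40 without _x_at and _s_at probe sets (1936 of 12316) and 14 with only the groups compared (2200). It was 1 with centring on the genes kept (1362) and 19 of 148 features with probe sets of several symbols (1958 of 12757). Leaving out 1 array gave 2 to 3 higher (all genes: 774 to 1078) and 0 to 7 lower (all genes: 1299 to 1698). The median (-0.11) was -0.29 with median centring and -0.01 when a gene's probe sets were averaged, and it was -0.14 to -0.10 without 1 array. With GH in WT, the count lower was 0 as reported (all genes: 1489), 10 with median centring (3939) and 1 with quantile normalization (1634 of 12652). It was 5 without WT replicate 1 and KO replicate 3 together (1763) and 4 of 148 features with several symbols (1486 of 12757). Without 1 array it was 0 to 3. It was 3 without WT replicate 1 (all genes: 1450), and 1, Rps6, without WT replicate 2 (1300). The count higher was 2 as reported (all genes: 927) and 6 of 148 features with several symbols (929 of 12757). The median (-0.04) was -0.23 with median centring, -0.14 without WT replicate 1 and KO replicate 3 together, and -0.14 to 0.00 without 1 array. For KO against WT without GH, leaving out 1 array gave 0 to 1 higher and a median of -0.04 to 0.10, and with GH 0 and -0.07 to 0.01. The 1 call came without KO replicate 1, where 119 of 12654 genes were higher. The interaction median was -0.13 to 0.02 without 1 array and 0.03 without WT replicate 1 and KO replicate 3 together. The range of array medians (0.31) was 0.46 with median centring and 0.13 with quantile normalization.

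With GH in KO, 5 genes turned direction with the probe set used and were called under at least 1 choice. Rpl22 was at 0.02 when its probe sets were averaged and at 0.36 both without _x_at and _s_at probe sets and with the second brightest. Rpl41 was at 0.09 with the mean and 0.45 without _x_at and _s_at. Rps24 was at 0.36 with the mean (adjusted p = 0.00307), 0.21 without _x_at and _s_at and 0.44 with the second brightest (adjusted p = 0.0303). Rpl27, at -0.28 as reported, was at 0.42 with the mean (adjusted p = 0.0385) and 0.70 with the second brightest (adjusted p = 0.00465). Rps14, at 0.27, was at -0.35 with the second brightest (adjusted p = 0.0283). In WT, Rpl27 with the second brightest (0.49, adjusted p = 0.0382) and Rps24 without _x_at and _s_at probe sets (0.51, adjusted p = 0.0347) turned likewise. Rpl37 kept its call in 18 of 18 alternatives in each genotype, having no probe set without those suffixes. Rpl12 kept it in 19 of 19 in WT and 18 of 19 in KO. Leaving out WT replicate 1 and KO replicate 3 together, centring on the genes kept, probe sets of several symbols and the second brightest probe set were chosen after seeing the data. No paired analysis was possible because the animal numbers in the titles are shared by no groups and replicate numbers were given in accession order. The tests used 3 arrays a group, and dim genes such as Rps6 and Rpl27a had wide intervals.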
